A study of Mus musculus with 18 samples.

Results

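The potassium channel genes described here are the 87 genes, of 19938 measured, whose symbol starts with Kcn and goes on with a family letter code and a number. Of these, 35 encode pore subunits of voltage-gated channels, 15 inward rectifiers, 14 channels with a pair of pore domains in each subunit, 8 channels opened by calcium or sodium, and 15 auxiliary subunits. Values are log2 signals of whole-transcript arrays normalized by robust multi-array average (RMA), with 1 probe set per gene, and a difference of 1 on this scale is a 2-fold difference.

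The study asked what loss or inhibition of EglN1, the oxygen-dependent prolyl hydroxylase that marks hypoxia-inducible factors for destruction, does to muscle RNA. It used 6 groups of 3 arrays, from mice back-crossed to C57BL/6 whose age is not given in the sources used here. Soleus KO and quadriceps KO came from mice with a floxed EglN1 gene and a tamoxifen-inducible Cre recombinase of skeletal muscle, so other cells of the muscle keep the gene. Soleus WT and quadriceps WT came from mice with that Cre and no floxed gene, and both genotypes received tamoxifen over the 3 days before the tissues were taken. Heart FG4497 came from EglN1 WT mice given the EglN inhibitor FG-4497 at 50 mg per kg into the peritoneum, and heart control from mice given vehicle, both without tamoxifen in the labels. Numbers in the labels join each soleus to a quadriceps array of the same genotype, and they were read here as 6 animals.

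Potassium channels let potassium leave the cell, which holds the resting voltage and ends the action potential. In heart, several channels take turns in repolarization, and genes of the transient outward, delayed rectifier and inward rectifier currents are textbook arrhythmia genes. In skeletal muscle, inward rectifiers and channels gated by ATP or calcium also clear potassium from the tubules and couple excitability to metabolism. Oxygen-sensitive potassium channels are known from carotid body and lung vessels, which were not sampled here.

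Array medians lay between 6.68 and 6.81, and replicates correlated at r of 0.9929 to 0.9972 over all genes. The mean of 6 cardiomyocyte markers was 13.71 to 13.76 in hearts and at most 8.59 in skeletal muscle, and that of 8 slow fibre markers was at least 13.47 in soleus and at most 9.48 in quadriceps. Within quadriceps the slow fibre mean ranged from 7.32 to 8.67 in WT and from 7.40 to 9.48 in KO, a wider spread than in any other tissue. Egln1 itself read 11.03, 11.07 and 11.12 in soleus KO against 11.29, 11.22 and 11.31 in soleus WT. In quadriceps it read 10.87, 10.67 and 10.92 in KO against 10.94, 10.99 and 10.95 in WT. It was lower in KO in both muscles, without overlap, but the adjusted p was 0.40 and 0.435 (limma), and which exons were deleted is not given in the sources used here.

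Most potassium channel genes gave a low signal in these tissues. Genes were tested if their mean lay at or above the 40th percentile of all genes, a level of 6.54 in the fit of muscle arrays, 6.61 in that of heart arrays and 6.58 over all 18. Of the 87 genes, 38 lay below 6.58 on every array and 20 lay above it on every array. The group mean reached this level for 39 genes in control heart, 32 in WT soleus and 32 in WT quadriceps. For 26 genes it did so in all 3 tissues, for 10 in heart alone, for 3 in both muscles but not heart (Kcnc1, Kcnma1 and Kcnq5), for 2 in quadriceps alone (Kcnab1 and Kcnf1) and for 1 in soleus alone (Kcnj13). The 15 auxiliary genes divided most between tissues, with 5 at or above the level in heart, 1 in soleus and 2 in quadriceps. Being below this level is a bound on the signal, not a sign that a gene is silent.

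Control heart was compared with each WT muscle. Against WT soleus, control heart was higher for 16 of 39 tested channel genes and lower for 8, and against WT quadriceps it was higher for 16 and lower for 11 (limma, adjusted p under 0.05). Of all 11963 tested genes, 60.1% were called against soleus (30.3% higher in heart, 29.8% lower) and 66.9% against quadriceps (32.7% higher, 34.2% lower). The shares of channel genes, 24 and 27 of 39, lie near this background. Kcnip2, Kcnd2, Kcnj3, Kcnj5 and Kcnv2 lay below the level on every muscle array, so they passed the filter through their high heart signal. Kcnc1, Kcnma1 and Kcnq5 lay below it on every heart array and passed through their high muscle signal. Kcnab1 lay below it on every heart and soleus array and passed through its quadriceps signal. The counts of calls are therefore not free of the filter. Both comparisons use the same 3 control hearts. Tissue cannot be told apart here from tamoxifen and Cre, which only the skeletal muscle groups had.

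**Figure D1:**
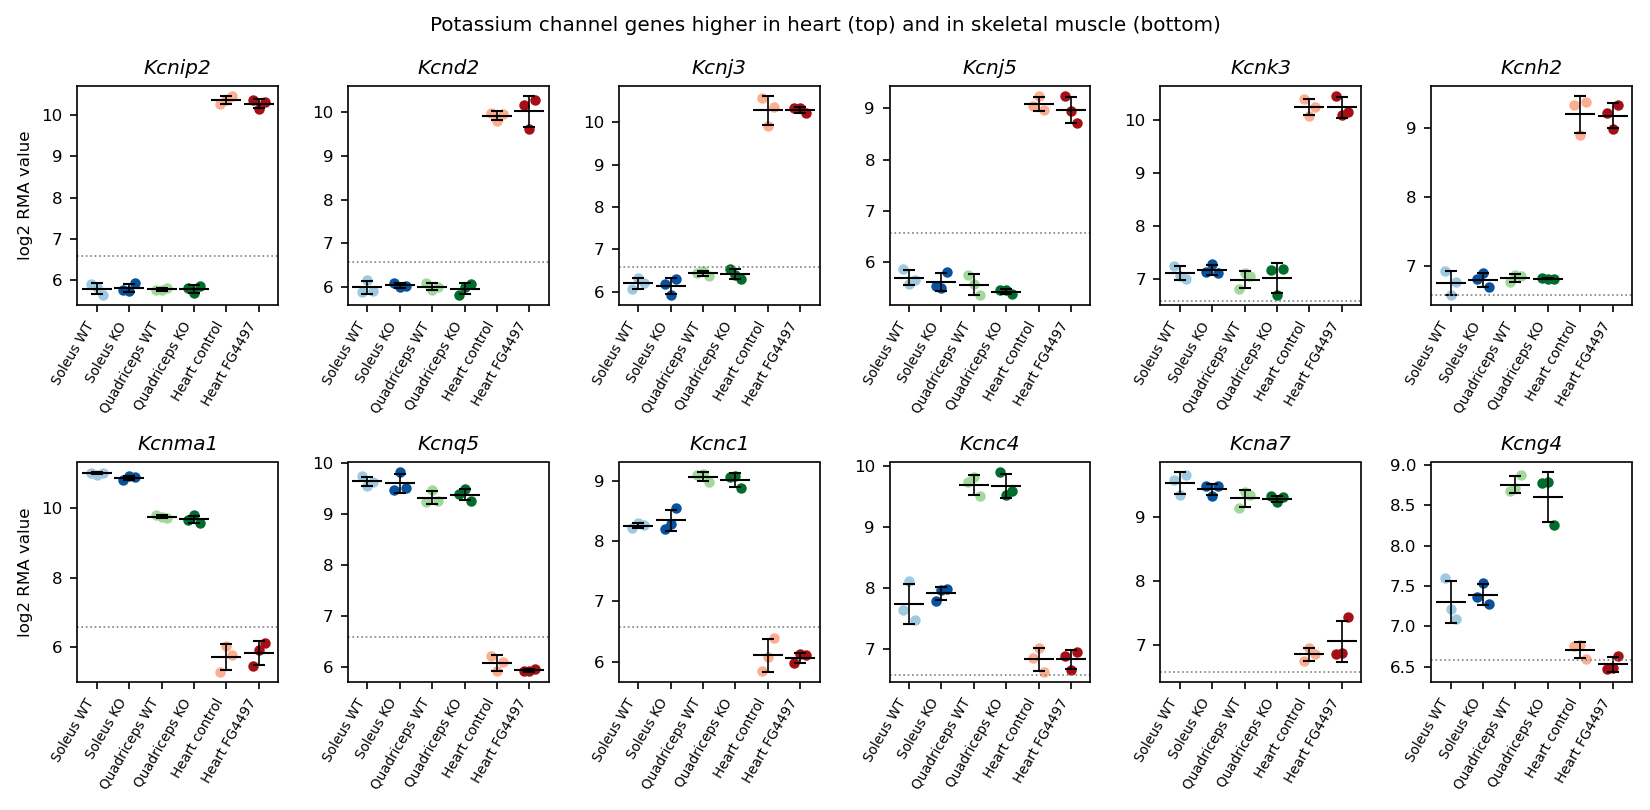
Log2 RMA values (vertical axis) of 12 potassium channel genes on each array of the 6 groups (horizontal axis); points are arrays, black lines the mean with SD (n = 3), and the dotted line the level of 6.58. The top row lies between 8.72 and 10.57 in hearts, the bottom row is higher in both muscles than in heart, and KO or FG-4497 groups lie beside their controls.

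The genes higher in heart are given by the current they serve, starting with the transient outward current. Kcnip2, the calcium-binding partner of this current's pore, read 10.27, 10.35 and 10.46 in control hearts. It read 5.92, 5.84 and 5.64 in WT soleus and 5.77, 5.76 and 5.82 in WT quadriceps. All 12 muscle arrays, KO included, lay below the level of 6.58, so heart was at least 13.7-fold higher, with measured log2 differences of 4.56 and 4.58 (SE 0.08 for both, adjusted p = 2.94e-18 and 2.47e-18, limma). Kcnd2, a pore subunit of this current, read 9.97, 9.80 and 9.96 in control hearts and between 5.82 and 6.17 on every muscle array. Heart was at least 10.1-fold higher. Kcnd3, the other main pore subunit, read 7.73, 7.86 and 7.61 in heart and at most 6.13 in muscle. Its mean missed the filter, and all muscle arrays lay below the level, so heart was at least 2.23-fold higher (adjusted p = 1.59e-10 against WT soleus and 8.40e-11 against WT quadriceps without a filter, limma).

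Acetylcholine-gated and leak channels were also higher in heart. Kcnj3 and Kcnj5 form the channel through which vagal acetylcholine slows the atrium and pacemaker. Kcnj3 read 10.57, 9.91 and 10.36 in control hearts against 6.08, 6.32 and 6.20 in WT soleus and 6.45, 6.49 and 6.37 in WT quadriceps, a bound of at least 13.0-fold. Kcnj5 read 9.04, 9.24 and 8.98 in heart and at most 5.86 in muscle, a bound of at least 5.68-fold. Kcnk3, an acid-sensitive leak channel, read 10.38, 10.08 and 10.23 in heart. In WT soleus it read 7.25, 7.06 and 7.01 and in WT quadriceps 6.81, 7.10 and 7.05, so heart was 8.72-fold and 9.45-fold higher. No heart array overlapped a muscle array for any of these genes.

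So were delayed rectifiers and silent subunits. Kcnh2, the pore of the rapid delayed rectifier, read 9.33, 8.89 and 9.36 in control hearts against 6.92, 6.57 and 6.76 in WT soleus and 6.76, 6.87 and 6.86 in WT quadriceps (5.43-fold and 5.16-fold). Kcnq1, the pore of the slow delayed rectifier, read 8.89, 8.66 and 8.92 in heart and was 3.96-fold and 3.78-fold higher than in soleus and quadriceps. Its partner Kcne1 reached only 6.27, 6.48 and 6.45 in heart, below the level on every array. Kcng2 and Kcnv2, silent subunits that open no channel alone but alter others, were both called higher in heart. Kcng2 differed by 1.94 from WT soleus and 2.07 from WT quadriceps on the log2 scale (SE 0.10). Kcnv2 lay below the level on every muscle array, so heart was at least 2.52-fold higher. Kcna5, the pore of the ultrarapid delayed rectifier, was higher in heart by 0.45 and 0.75 (SE 0.12). Kcnn2, a small-conductance calcium-activated channel, was higher by 1.34 and 1.23 (SE 0.10).

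The genes higher in skeletal muscle were led by Kcnma1, the large-conductance calcium-activated channel. It read 10.99, 10.95 and 11.001 in WT soleus and 9.79, 9.73 and 9.71 in WT quadriceps, and 5.31, 6.06 and 5.80 in control hearts. Heart lay below the level, so soleus was at least 21.1-fold and quadriceps at least 8.97-fold higher. A second Kcnma1 probe set averaged between 4.28 and 4.61 in every group and showed no such difference. Kcnq5, a channel of the M-type family, read 9.75, 9.56 and 9.63 in WT soleus, 9.24, 9.48 and 9.26 in WT quadriceps and 6.21, 5.91 and 6.08 in heart, bounds of at least 8.39-fold and 6.72-fold. Kcna7, a delayed rectifier of skeletal muscle, differed from heart by 6.39-fold in soleus and 5.43-fold in quadriceps. Kcnc1, a fast delayed rectifier, read 8.22, 8.30 and 8.26 in WT soleus, 9.10, 9.12 and 8.99 in WT quadriceps and 5.85, 6.07 and 6.38 in heart.

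The inward rectifiers fell on both sides. Kcnj2, the main pore of the classical inward rectifier, was 3.60-fold higher in WT soleus and 1.96-fold higher in WT quadriceps than in heart. Kcnj12, its close relative, and Kcnj11, the pore of the ATP-sensitive channel of striated muscle, were higher in quadriceps than heart, with heart minus quadriceps differences of -0.69 (SE 0.08) and -0.63 (SE 0.09). Against soleus these genes differed by 0.02 in both cases, with 95% intervals of -0.15 to 0.19 and -0.18 to 0.22, and did not pass the test. Kcnj8, the ATP-sensitive pore known from vessels, was higher in heart by 0.50 than in soleus and by 1.29 than in quadriceps (SE 0.08). All 7 endothelial markers were called higher in heart against each muscle, with means of 10.14 to 10.19 in control heart, 9.13 to 9.40 in WT soleus and 8.53 to 8.68 in WT quadriceps. Of 6 tested smooth muscle and pericyte markers, 1 was higher and 3 lower in heart than WT soleus (median -0.13), and 4 were higher and 0 lower than in WT quadriceps (median 0.65). In whole tissue, more cells of a type and more RNA per cell cannot be told apart, and the part of vessel content in the Kcnj8 difference was not tested.

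Several genes under the filter were also tissue-biased when tested without it, and they were picked after their values were seen, apart from Kcne1 and Kcnmb1. Kcne1, Kcna4 (a transient outward pore), Kcnmb1 (the beta subunit that tunes Kcnma1 in smooth muscle) and Kcnt2 (a sodium-activated channel) were called higher in heart than in either WT muscle (limma, largest adjusted p = 5.20e-05). For Kcnmb1 and Kcnt2 the muscle arrays lay below the level, and heart was at least 1.33-fold and 1.34-fold higher. For Kcne1 and Kcna4 all hearts also lay below the level, so no size is given. Kcnmb1 and Kcnma1 ran in opposite directions: Kcnmb1 read 6.89, 6.94 and 7.13 in heart and at most 6.47 in muscle.

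Soleus, a slow postural muscle, and quadriceps, mostly fast, differed for channel genes at a share close to that of all genes. In WT mice 16 of 33 tested channel genes were called, 8 higher in soleus and 8 higher in quadriceps, beside 49.7% of all 11963 tested genes, of which 23% were higher in soleus and 26.7% lower. Higher in soleus were Kcnn3, Kcnma1, Kcnj2, Kcnj8, Kcnq5, Kcna5, Kcna7 and Kcnk2. Higher in quadriceps were Kcnc4, Kcng4, Kcnab1, Kcnf1, Kcnc1, Kcnj12, Kcnj11 and Kcnn1. Kcnab1 and Kcnf1 lay below the filter level of 6.54 on every soleus array, so they passed the filter through their quadriceps signal. The counts of calls between muscles are therefore not free of the filter. The median soleus minus quadriceps difference of the 33 genes was 0.02, beside -0.01 for all genes.

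On the soleus side, calcium-activated channels had the largest differences. Kcnn3, a small-conductance channel, read 8.19, 8.22 and 8.29 in WT soleus against 6.84, 6.75 and 6.80 in WT quadriceps, a difference of 1.44 (SE 0.07, adjusted p = 3.91e-09, limma). Kcnma1 differed by 1.23 (SE 0.06, adjusted p = 2.79e-09). The groups were far apart for both genes relative to their spread. Kcnn1, another small-conductance channel, went the other way, with 7.64, 7.69 and 7.69 in soleus against 8.08, 8.05 and 8.05 in quadriceps. Kcnj2 read 10.15, 10.28 and 10.43 in soleus and 9.39, 9.51 and 9.32 in quadriceps, a 1.84-fold difference. Kcnj8 read 9.26, 9.36 and 9.46 in soleus and 8.63, 8.63 and 8.45 in quadriceps, a 1.73-fold difference. Beside Kcnj8, 6 of 7 endothelial and 6 of 6 tested smooth muscle and pericyte markers were called higher in WT soleus, and their part was not tested.

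The 8 genes higher in quadriceps were 4 voltage-gated pore genes, 1 auxiliary gene, 2 inward rectifiers and 1 calcium-activated channel. Kcnc4, a fast delayed rectifier of the same family as Kcnc1, read 7.63, 8.11 and 7.47 in WT soleus and 9.73, 9.81 and 9.50 in WT quadriceps, a 3.85-fold difference (log2 -1.94, SE 0.14, adjusted p = 1.40e-07, limma). Kcng4, a silent subunit, read 7.59, 7.22 and 7.09 in soleus and 8.67, 8.71 and 8.88 in quadriceps (2.74-fold). Kcnab1, a cytoplasmic beta subunit that binds Kcna pores and changes their inactivation, read 6.27, 6.28 and 6.37 in soleus and 7.48, 7.77 and 7.66 in quadriceps. Kcnf1, another silent subunit, read 6.15, 6.38 and 6.12 in soleus and 7.64, 7.27 and 7.07 in quadriceps. All soleus arrays of both genes lay below the level, so quadriceps was at least 2.14-fold higher for Kcnab1 and at least 1.73-fold higher for Kcnf1. Kcnc1, Kcnj12 and Kcnj11 differed by 1.76-fold, 1.63-fold and 1.57-fold, with no overlap of arrays.

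The remaining calls between WT muscles were small. Kcnq5, Kcna5, Kcna7 and Kcnk2, a mechanosensitive leak channel, were higher in soleus by 0.32, 0.30, 0.24 and 0.21 on the log2 scale. Kcnk2 had the largest adjusted p of them (0.0487, limma) and did not pass in 7 of the other ways of processing or in 5 fits that left out an array. Kcna7, Kcnq5 and Kcna5 also lost the call when particular WT arrays were left out. Below the filter, Kcnj13 was called higher in soleus when tested without it (adjusted p = 0.000345, limma), and was picked after its values were seen. All WT quadriceps arrays lay below the level, so soleus was at least 1.13-fold higher.

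KO mice, whose arrays are separate, gave much the same contrast of muscles. There 15 of 33 channel genes were called, 7 higher in soleus and 8 in quadriceps, beside 45.7% of all tested genes (23.7% higher in soleus, 22% lower). The 2 genotypes shared 14 calls, all in the same direction, which is 87.5% of the WT calls and 93.3% of the KO calls. Kcna1 was called in KO alone, and Kcna7 and Kcnq5 in WT alone, which does not show that these genes differed between genotypes. Over the 33 genes the differences of WT and KO correlated at r = 0.986, as a description across genes that share arrays. With soleus below the level on every array, KO quadriceps was at least 1.6-fold higher for Kcnab1 and at least 1.14-fold higher for Kcnf1. Both genes are among the shared calls and passed the filter through quadriceps, so the KO and shared counts also depend on the filter. The muscle difference of no channel gene passed a test for a change between genotypes, as given with the KO results.

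**Figure D2:**
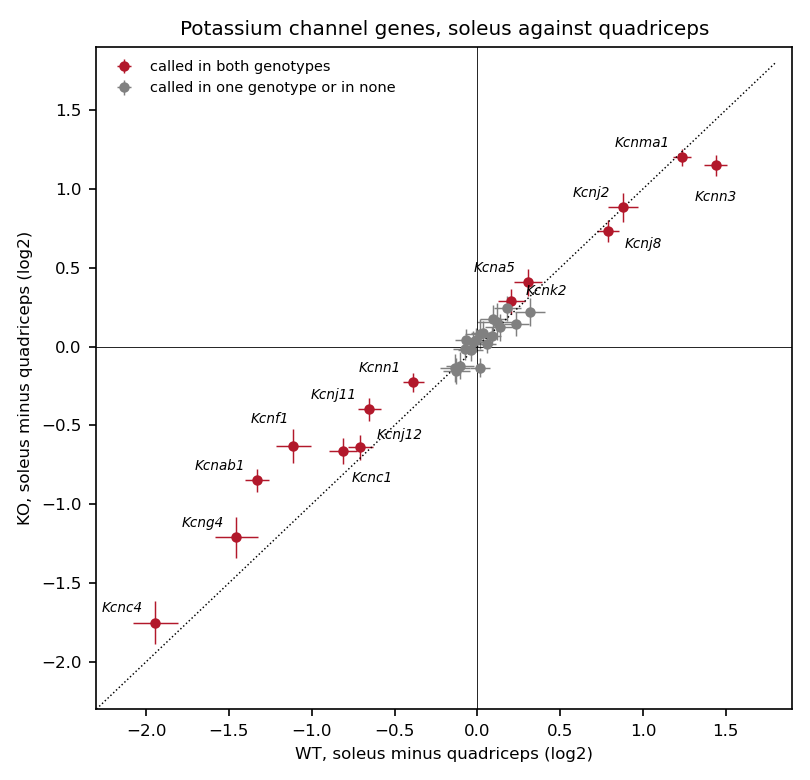
Soleus minus quadriceps difference (log2) of the 33 tested potassium channel genes in WT (horizontal axis) and KO mice (vertical axis); points are genes, bars 1 SE, the dotted line equality, and red the 14 genes called in both genotypes. Kcnn3 and Kcnma1 lie farthest on the soleus side and Kcnc4 farthest on the quadriceps side in both.

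Stabilized hypoxia-inducible factors bind a short core in DNA, ACGTG or GCGTG, so the RefSeq promoters (GRCm38.p6) of 4 genes on which the KO and FG-4497 comparisons turn are shown. Each line is the 250 bases upstream of the gene's only listed start, 5′ to 3′ on the gene's strand, with matches to either core on either strand in capitals. Kcnj2 lies at chr11:111065914-111066163 (plus strand), Kcne4 at chr1:78816661-78816910 (plus), Kcna5 at chr6:126535556-126535805 (minus) and Kcnf1 at chr12:17176889-17177138 (minus).
Kcnj2: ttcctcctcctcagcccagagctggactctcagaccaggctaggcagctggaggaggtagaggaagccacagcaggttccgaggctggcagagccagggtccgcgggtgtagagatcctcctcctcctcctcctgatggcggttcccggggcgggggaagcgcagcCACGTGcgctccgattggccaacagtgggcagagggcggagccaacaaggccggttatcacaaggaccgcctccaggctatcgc
Kcne4: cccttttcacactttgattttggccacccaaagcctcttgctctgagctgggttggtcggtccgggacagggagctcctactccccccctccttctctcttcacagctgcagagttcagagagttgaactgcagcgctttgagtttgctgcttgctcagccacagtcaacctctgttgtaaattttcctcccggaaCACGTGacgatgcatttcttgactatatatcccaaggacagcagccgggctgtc
Kcna5: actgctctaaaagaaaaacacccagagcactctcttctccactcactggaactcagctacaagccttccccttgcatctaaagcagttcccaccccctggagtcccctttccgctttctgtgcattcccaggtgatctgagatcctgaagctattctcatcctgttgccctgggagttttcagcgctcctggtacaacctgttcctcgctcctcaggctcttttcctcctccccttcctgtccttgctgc
Kcnf1: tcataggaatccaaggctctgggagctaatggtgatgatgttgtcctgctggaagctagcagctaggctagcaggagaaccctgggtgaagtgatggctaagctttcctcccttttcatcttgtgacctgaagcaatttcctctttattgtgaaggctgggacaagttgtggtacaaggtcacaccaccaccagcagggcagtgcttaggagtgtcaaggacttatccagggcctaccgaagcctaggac

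Kcnj2 and Kcne4 each held 1 CACGTG, a palindrome that holds ACGTG on both strands and is also an E-box, the element bound by clock proteins, and neither core was found in the windows of Kcna5 or Kcnf1. Kcnab1 has 3 listed starts, and 2 of its windows held CACGTG. Of the channel genes 66 had a window, and the shares of windows with a match were not tested against each other. ACGTG was in 14.3% of their 91 windows and 16.6% of all 32851, GCGTG in 26.4% and 28.2%, and CACGTG in 6.6% and 6.0%. A match describes the letters of the window and is not a binding site.

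Loss of EglN1 changed no tested channel gene in soleus at the threshold used. Of 33 genes, 0 were called by limma, beside 0.184% of all tested genes, and 2 had an unadjusted p under 0.05, beside 7.56% of all. These were Kcnn2, at 7.05, 7.09 and 7.22 in KO against 6.84, 6.59 and 6.92 in WT (log2 0.33, SE 0.09, adjusted p = 0.279), and Kcnj8, at 9.64, 9.55 and 9.52 against 9.26, 9.36 and 9.46 (0.21, SE 0.07, adjusted p = 0.465). KO and WT arrays did not overlap for either gene, but both were picked by small p. The next by p were Kcnn3, Kcnma1 and Kcng1, with KO minus WT differences of -0.15, -0.12 and -0.09 and adjusted p of 0.696, 0.748 and 0.870 (limma). All 33 differences lay between -0.15 and 0.33, with a median of 0.01 beside 0.00 for all genes.

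In quadriceps 2 of 33 channel genes were called, both lower in KO, beside 0.794% of all tested genes in either direction and 0.485% lower. Kcnab1 read 7.22, 7.11 and 7.31 in KO against 7.48, 7.77 and 7.66 in WT, a difference of -0.43 (SE 0.08, 1.34-fold, adjusted p = 0.0363, limma). Kcnf1 read 6.76, 6.82 and 6.61 in KO against 7.64, 7.27 and 7.07 in WT, a difference of -0.60 (SE 0.12, 1.51-fold, adjusted p = 0.0383, limma). KO arrays lay below WT arrays for both, and Kcnf1 varied more among WT than among KO arrays. Neither call was firm: the adjusted p of Kcnab1 was 0.13 without WT array 2 or without WT array 3, and 0.108 without KO array 1 or 2. That of Kcnf1 was 0.098, 0.0732 and 0.113 without KO array 1, 2 and 3 in turn. Without WT array 1 or 2 the gene fell below the filter. Kcnab1 and Kcnf1 both lay below the level on every soleus array, so they entered the test through their quadriceps signal, which was highest in WT. Their calls as lower in KO are therefore not free of the filter. With the slow fibre mean of each array as a covariate, Kcnab1 differed by -0.39 (adjusted p = 0.0563) and Kcnf1 by -0.66 (adjusted p = 0.0233, limma).

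The next genes in quadriceps did not pass. Kcnj11 read 9.66, 9.46 and 9.57 in KO against 9.89, 9.93 and 9.92 in WT (log2 -0.35, SE 0.08, adjusted p = 0.0613, limma). Kcnn2 read 7.17, 7.33 and 7.23 in KO against 7.02, 6.86 and 6.80 in WT (0.35, SE 0.09, adjusted p = 0.126). Kcnj8 read 8.94, 8.85 and 8.71 in KO against 8.63, 8.63 and 8.45 in WT (0.27, SE 0.07, adjusted p = 0.142). Kcnn1 had a KO minus WT difference of -0.16 (SE 0.07, adjusted p = 0.349). KO and WT did not overlap for any of these genes, but they were picked by small p. With 3 against 3 arrays, an absence of overlap alone gives p = 0.1 by an exact permutation test. The share of all genes without overlap is not given here. Kcnn2 and Kcnj8 were the 2 genes with the smallest p in soleus, in the same direction, and passed in neither muscle. Both muscles were read as coming from the same animals, so the muscles are not independent of each other. The median difference of the 33 genes was -0.02, as for all genes.

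None of the tested markers of slow fibre (8), fast fibre (8), endothelium (7), smooth muscle and pericyte (6), nerve (3), macrophage (5), adipocyte (4) or fibroblast (5) was called in the KO comparison of either muscle by limma. Some list medians lay farther from 0 than that of the channel genes: 0.33 for adipocyte markers and 0.22 for clock genes in soleus, and 0.30 for slow fibre and 0.28 for adipocyte markers in quadriceps. The pericyte marker Rgs5, which vessels share with Kcnj8, was higher in quadriceps KO by 0.26 without passing (adjusted p = 0.0979, limma). It is 1 gene of its list: smooth muscle and pericyte markers had medians of 0.09 in quadriceps and 0.04 in soleus. Those of endothelial markers were 0.09 and 0.13. Of 14 circadian clock genes, Arntl was called in quadriceps, at 7.12, 6.90 and 7.51 in KO against 7.95, 8.11 and 8.31 in WT (adjusted p = 0.0374). The clock list had 7 of 14 genes with an unadjusted p under 0.05 in quadriceps, and 0 calls and 8 such genes in soleus (limma). The part of these lists in the channel genes was not tested.

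**Figure D3:**
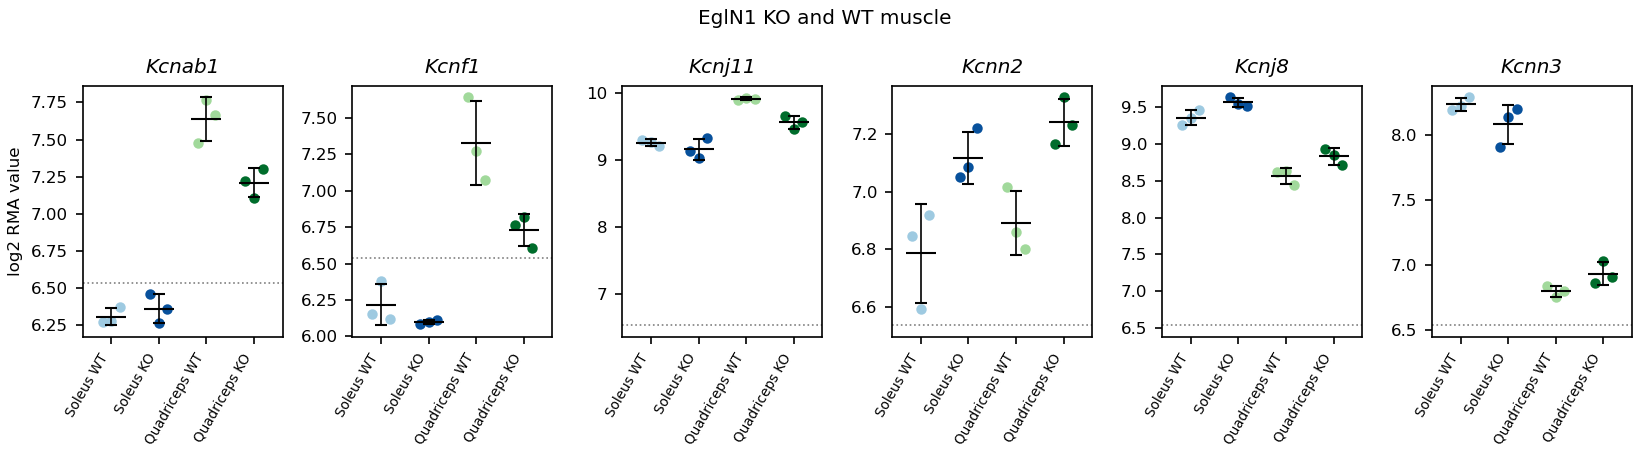
Log2 RMA values (vertical axis) of 6 potassium channel genes on each array of the 4 muscle groups (horizontal axis); points are arrays, black lines the mean with SD (n = 3), and the dotted line the level of 6.54. Kcnab1 and Kcnf1 are lower in quadriceps KO than WT while their soleus values lie below the level. Kcnn2 and Kcnj8 are higher in KO in both muscles, which share animals, without passing the test.

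No channel gene passed a test for a different response to EglN1 loss in the 2 muscles. The test of the soleus effect minus the quadriceps effect called 0 of 33 genes, beside 0.00836% of all tested genes, and 4 had an unadjusted p under 0.05, beside 6.55% of all (limma). Kcnab1 had the smallest, with KO minus WT differences of 0.05 (95% interval -0.12 to 0.23) in soleus and -0.43 in quadriceps, so that the effects differed by 0.48 (SE 0.10, adjusted p = 0.260). The others were Kcnf1 (0.48, adjusted p = 0.582), Kcnn3 (-0.29, adjusted p = 0.609) and Kcnj11 (0.25, adjusted p = 0.680). For Kcnab1 and Kcnf1 the soleus signal was below the level in both genotypes. The effects on Kcnn2 and Kcnj8 differed by -0.02 (95% interval -0.28 to 0.25) and -0.06 (-0.26 to 0.15).

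In heart, FG-4497 raised 1 of 39 tested channel genes, Kcnj2, beside 2.23% of all 11963 tested genes in either direction and 1.58% higher. Kcnj2, which sets the resting voltage of ventricular muscle, read 8.89, 8.68 and 8.88 with FG-4497 against 8.45, 8.42 and 8.44 with vehicle, a rise of 0.38 (SE 0.08, 1.30-fold, adjusted p = 0.0444, limma). The control hearts were nearly equal, all below the treated ones. The call was lost in 5 of 6 fits without an array (adjusted p 0.108 to 0.152) and kept without FG-4497 array 2 (0.0302). Kcna5 had a larger difference that did not pass, with 8.16, 7.71 and 8.004 against 7.60, 7.15 and 7.38 (0.58, SE 0.13, adjusted p = 0.0547). Its arrays did not overlap, but the share of all genes without overlap in heart is not given here. It passed without vehicle array 1 (0.0286) or without FG-4497 array 2 (0.0339).

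Of the remaining heart genes, the nearest to the threshold were Kcnn4, an intermediate-conductance calcium-activated channel (log2 -0.23, adjusted p = 0.278), Kcnn1 (0.22, adjusted p = 0.322) and Kcnk6, a channel with a pair of pore domains (0.17, adjusted p = 0.458, limma). The genes that set heart apart from muscle gave small differences: Kcnip2 -0.09 (95% interval -0.28 to 0.11), Kcnk3 0.00 (-0.25 to 0.25), Kcnj3 0.02 (-0.30 to 0.33), Kcnq1 -0.05 (-0.30 to 0.20), Kcnh2 -0.02 (-0.32 to 0.28) and Kcnd2 0.10 (-0.23 to 0.43). The median of the 39 genes was 0.00, as for all genes.

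Below the filter, Kcne4, a small membrane protein that dampens Kcna and Kcnq1 currents, was the channel gene with the largest difference, picked after its values were seen. It read 6.80, 6.64 and 6.72 with FG-4497 against 6.19, 6.13 and 5.76 with vehicle. The treated hearts lay above the level of 6.61 and the controls below it, without overlap. Tested without a filter, the difference was 0.69 (SE 0.12, adjusted p = 0.0398, limma), and against the level itself it was at least 1.08-fold. Under that setting Kcnj2 did not pass (adjusted p = 0.155). In KO soleus and quadriceps Kcne4 stayed below 6.54 on every array.

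**Figure D4:**
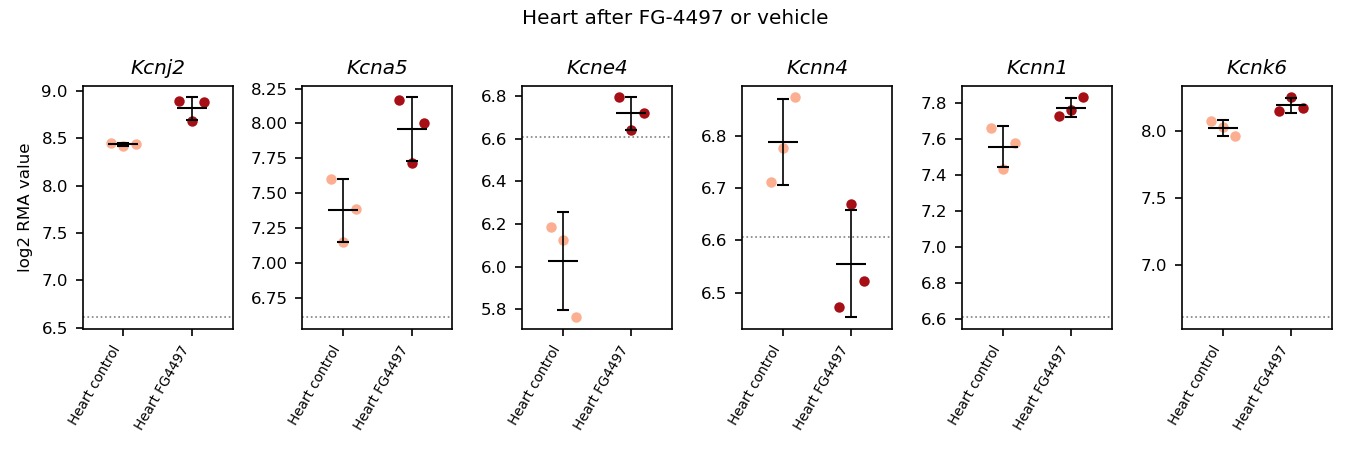
Log2 RMA values (vertical axis) of 6 potassium channel genes in hearts of mice given vehicle (control) or FG-4497 (horizontal axis); points are arrays, black lines the mean with SD (n = 3), and the dotted line the level of 6.61. Groups do not overlap for any of the 6, which were picked by small p or, for Kcne4, after its values were seen. Kcnj2 alone passed the test with the filter in place.

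**Figure D5:**
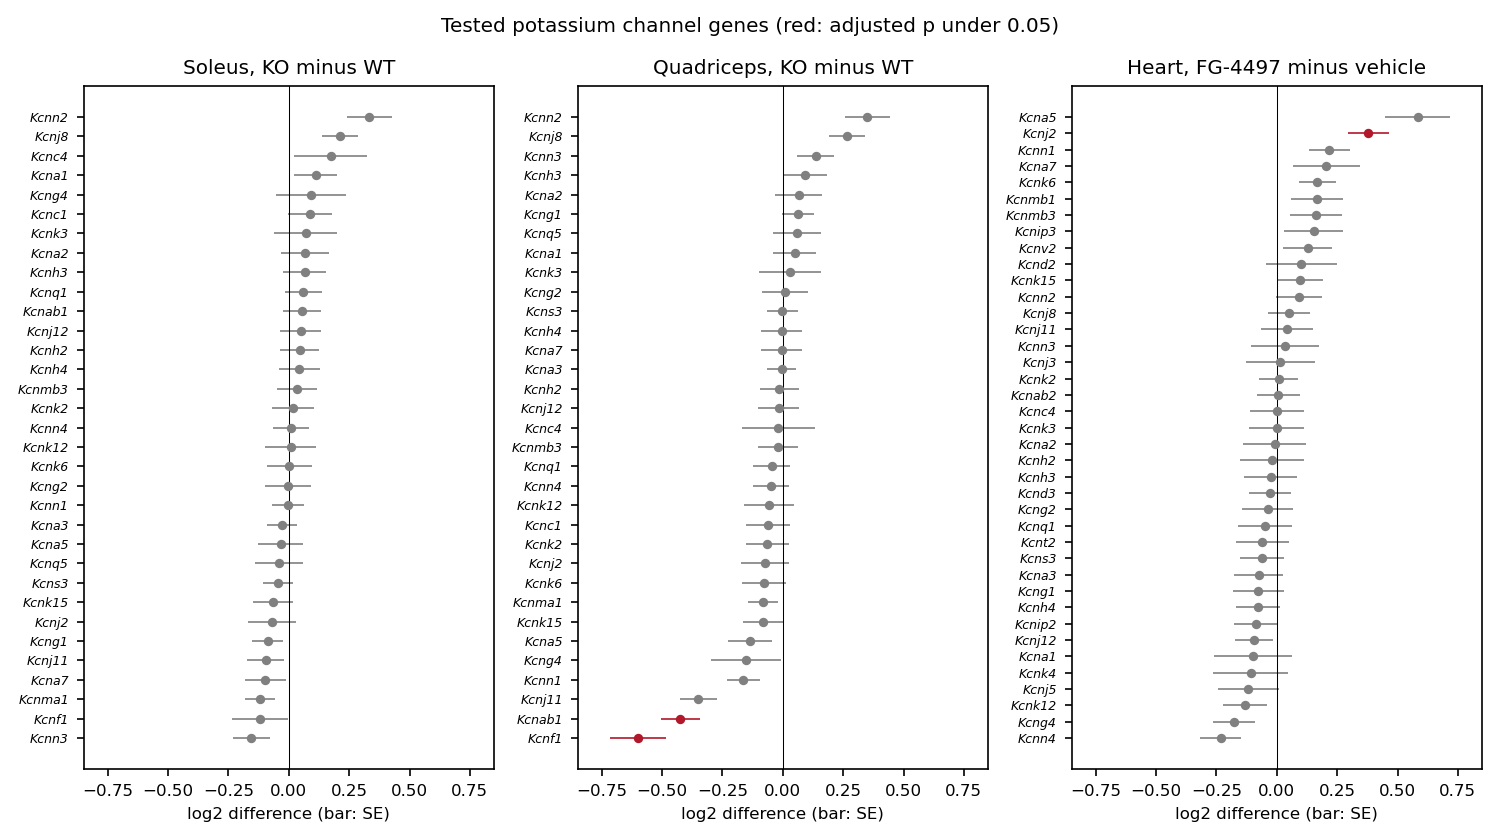
Log2 differences with SE (horizontal axis) of all tested potassium channel genes (vertical axis), ordered by size, for KO minus WT in soleus and quadriceps (33 genes each) and FG-4497 minus vehicle in heart (39 genes). The 3 genes called at an adjusted p under 0.05 are red, and Kcnn2 and Kcnj8 head the list in both muscles, which share animals.

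Single marker and clock genes were also called in these hearts. Of 7 endothelial markers, Cldn5 was called higher, at 9.72, 9.90 and 10.26 with FG-4497 against 8.48, 8.61 and 8.48, and the list mean was 10.24 to 10.36 against 10.14 to 10.19. The median over the 7 was -0.12, so the list did not rise together. Of 14 clock genes, Ciart was higher by 1.00 and Nr1d1 had a difference of -0.47 (adjusted p = 0.0016 and 0.0439, limma). None of the markers of cardiomyocytes (6), smooth muscle and pericytes (6), fibroblasts (5) or macrophages (6) was called. The part of vessel cells or of clock time in the channel genes was not tested.

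Proteins that work with these channels but do not carry a Kcn symbol were followed as a list of 17 measured genes. Between WT soleus and quadriceps, 3 of 11 tested were higher and 6 lower, beside 23% and 26.7% of all tested genes. Lrrc52, a leucine-rich repeat protein that can act as an auxiliary subunit of large-conductance channels, read 10.005, 10.08 and 10.21 in soleus against 6.55, 6.62 and 6.701 in quadriceps (log2 3.47, SE 0.19, adjusted p = 1.36e-08, limma). Lrrc38, of the same family, ran the other way at 7.48, 7.78 and 7.72 against 9.35, 9.43 and 9.45 (-1.75, SE 0.12, adjusted p = 1.34e-07). So the muscle that is higher in Kcnma1 is higher in Lrrc52 and lower in Lrrc38. The sulfonylurea receptors Abcc8 and Abcc9, which complete ATP-sensitive channels, were higher in heart than WT soleus by 2.02 and 0.62 (SE 0.09 and 0.07). They had soleus minus quadriceps differences of -0.34 and -0.20 in WT, on the side of Kcnj11 and opposite to Kcnj8, which was higher in soleus. In the KO comparisons 0 of 11 partners were called in each muscle, and with FG-4497 0 of 10 (limma), with 0, 1 and 1 at an unadjusted p under 0.05.

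A list of 18 measured sodium, calcium, chloride, pacemaker and gap junction genes gives the setting of the channels. Of 15 tested, 6 were higher and 8 lower in heart than in WT soleus, beside 30.3% and 29.8% of all tested genes. Of 14 tested, 3 were higher and 7 lower in WT soleus than in WT quadriceps, beside 23% and 26.7%. Cacna1c, the calcium channel pore of heart, read 11.52, 11.43 and 11.55 in control heart and 6.77, 6.95 and 7.10 in WT soleus. Cacna1s, its skeletal counterpart, read 7.86, 7.78 and 7.69 in heart and 12.43, 12.59 and 12.42 in soleus. The pacemaker genes Hcn2 and Hcn4 were higher in heart by 2.02 and 0.97 than in WT soleus, and Clcn1, the chloride channel that shares resting conductance with potassium channels in skeletal muscle, was lower in soleus than quadriceps (-0.91, SE 0.06). None of the 14 tested genes was called in soleus KO, quadriceps KO or heart with FG-4497 by limma, with 0, 3 and 2 at an unadjusted p under 0.05.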

How the data were processed

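RNA of 6 groups was measured on 18 Affymetrix whole-transcript mouse arrays. The values are on a log2 scale and were made by the authors with RMA, per the submitters' processing notes, which corrects background, normalizes by quantiles and combines probes. The sources used here give neither its version nor the set of arrays it was run on. Of 35556 probe sets, 21789 named 1 gene, 1621 several and 12146 none here, and 21698 symbols were updated through gene identifiers with a RefSeq table (GRCm38.p6). Each gene was taken at its brightest probe set, so 90 probe sets gave 87 channel genes, 84 of them with 1 probe set. Probe sets differ in response, so levels were not ranked between genes.

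Tests used limma 3.58.1 in R 4.3.3 over all 11963 genes with a mean at or above the 40th percentile, with Benjamini-Hochberg adjustment at 0.05. Fits held the 12 muscle arrays or all 18, with the animal as random block (correlation 0.178 and 0.210), or the 6 hearts. Where a group lay below the filter level on every array, a fold is given from the level, as at least. The scripts were tested on simulated data. With 3 against 3 arrays an exact permutation test cannot go below p = 0.1. Array number limits precision; intensity arrays have no read depth. As a check of the animal numbers, deviations of the 6 soleus and quadriceps pairs from group means correlated at -0.00 to 0.38, with 4 above 0.1.

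The channel genes, the lists and the rule for named genes were chosen with earlier results of these data known. The rule takes, per comparison, up to 10 called channel genes in each direction with the largest change, the 5 with the smallest p where fewer than 3 were called, the 8 with the highest mean in each tissue, and a set of textbook channels. Alternatives were the filter, the normalization, the summary of probe sets, the prior, array weights, blocks, a slow fibre covariate and leaving out each array.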

Additional observations from a re-analysis of the deposited data

How the results depend on the processing

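The count of called channel genes kept within 1.5 times its value under each alternative for the 6 comparisons other than quadriceps KO and heart FG-4497. In quadriceps KO against WT the 2 calls became 0 without a filter, 0 with a filter at the 50th percentile, 1 with repeated quantile normalization, 4 with array weights, 1 with the replicate block on the title number, 0 with the 6 quadriceps arrays alone and 1 with the slow fibre covariate, and 0 to 1 when each array was left out. In heart the 1 call became 2 with a filter at the 50th percentile, with equal array medians, and with a trended, robust prior, and 0 to 2 when each array was left out. Title numbers did not pair arrays (deviations correlated at -0.31 to 0.16 over 9 pairs, 1 above 0.1); with them as a replicate block, Kcnab1 (adjusted p = 0.062, limma), Kcnk2 and Kcnj2 (0.066) lost their call and Kcna5 in heart gained one (0.00768). A filter at the 40th percentile of all probe sets, chosen after seeing the data, gave 2 calls in quadriceps and 1 in heart, where Kcnj2 gave way (0.0579, limma) to Kcne4. Of 89 results for single genes, 77 kept their side of the threshold under every alternative run; among 1477 fits, 48 lost a call, 9 gained one and 0 changed sign. Kcnf1 could not be tested with the 50th percentile filter or without quadriceps WT array 1 or 2, where it fell below the filter. The cause of these changes was not tested. With 3 arrays a group, the median SE of a channel gene was 0.09 in KO comparisons of muscle and 0.11 in heart. Differences of about that size cannot be told from spread, and differences several times larger also missed the threshold. Kcnn2 at 0.33 in soleus KO and Kcna5 at 0.58 in heart did not pass. The absence of a call therefore does not exclude changes of such sizes.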
